A study of Mus musculus with 16 samples.

Results

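The loci of 3 genes were examined for chromatin accessibility in mouse progenitors: Med13l, Cdh23 and Impdh1, 3 of 21938 annotated protein-coding genes. They were chosen on measured values, as the genes nearest the highest-ranked sites that lost their peak when GATA2 was expressed. All peaks within 150 kb of each gene's 5' end were collected from 16 ATAC-Seq libraries. ATAC-Seq marks open chromatin by the insertion of sequencing adapters by a transposase. To compare lists of unequal length, the 49000 most significant peaks of each library were used, and peaks sharing 1 bp or more were joined across libraries into regions. Distances are given in the direction of the gene, with a minus sign for upstream. The windows held 36 regions at Med13l, 32 at Cdh23 and 31 at Impdh1, 99 of 90359 in all.

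The study asked how GATA2 and a disease variant of it act on chromatin. Fetal liver progenitors immortalized by estrogen-regulated HoxB8 were infected for 3 days with a GFP retrovirus and isolated by FACS. Cells with an intact -77 enhancer of Gata2 received an empty vector (hi-77+/+ empty). Cells that lacked this enhancer on both alleles received an empty vector (hi-77-/- empty), mouse GATA2 (hi-77-/- GATA2), or 9aa-Ins (hi-77-/- 9aa-Ins), which carries 9 extra amino acids between the zinc fingers. Each group had 4 libraries. All groups shared the HoxB8 transgene and estradiol in the medium. The sources used here name no separate lines within a genotype, so a difference between genotypes was also a difference between cell lines, and GATA2 was supplied by a vector and not by its own locus.

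GATA2 is a zinc finger transcription factor of hematopoietic stem and progenitor cells that binds GATA motifs and both activates and represses genes. Accessible sites far from promoters often mark enhancers, and loss of accessibility at such a site can accompany repression of a gene. Med13l encodes a subunit of the kinase module of Mediator, the complex that links transcription factors to RNA polymerase II. Cdh23 encodes cadherin 23, an adhesion protein known for the tip links of sensory hair cells. Impdh1 encodes inosine monophosphate dehydrogenase, which catalyzes the rate-limiting step of guanine nucleotide synthesis.

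The site that named each locus differed in its position relative to the gene. Med13l (ENSMUSG00000018076.12, plus strand, 5' end at position 118560679 of chromosome 5) had its site at chr5:118494596-118495792 (mm10), at -65.5 kb from the 5' end. This site was intergenic with respect to protein-coding genes and lay within Gm15754, a transcribed processed pseudogene. Cdh23 (ENSMUSG00000012819.15, minus strand, 5' end at 60696490 of chromosome 10) had its site at chr10:60618921-60619638, in an intron 77.2 kb downstream of the 5' end. Impdh1 (ENSMUSG00000003500.13, minus strand, 5' end at 29216364 of chromosome 6) had its site at chr6:29231933-29232996, intergenic and at -16.1 kb from the 5' end. The nearest annotated 5' end of any type to the Impdh1 site was that of Gm26021, a small nucleolar RNA gene 2 kb away.

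The reference sequence of 300 bases around a central summit position is shown for the 3 sites that carried the loss of peaks. It is also shown for a region near Med13l that gained peaks with GATA2. The bases are the plus strand of GRCm38 (mm10), at chr5:118495067-118495366, chr10:60619147-60619446, chr6:29232532-29232831 and chr5:118480031-118480330. The Med13l window lies between split summits. The hi-77-/- empty summits at 118495088 and 118495347 fall inside it and those at 118495004 and 118495439 outside. The 9aa-Ins summits, at 118494999, 118495028, 118495372 and 118495420, all fall outside. Matches at Med13l thus describe a stretch between summits. Capitals mark GGAA, the core bound by ETS factors, and the GATA hexamer (GATA preceded by A or T and followed by A or G), on either strand.
Med13l site: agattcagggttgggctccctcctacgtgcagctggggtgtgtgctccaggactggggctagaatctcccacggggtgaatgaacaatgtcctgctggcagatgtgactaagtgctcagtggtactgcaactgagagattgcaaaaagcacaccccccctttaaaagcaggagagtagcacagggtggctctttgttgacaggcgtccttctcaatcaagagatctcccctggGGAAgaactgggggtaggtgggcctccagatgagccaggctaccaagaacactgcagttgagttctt
Cdh23 site: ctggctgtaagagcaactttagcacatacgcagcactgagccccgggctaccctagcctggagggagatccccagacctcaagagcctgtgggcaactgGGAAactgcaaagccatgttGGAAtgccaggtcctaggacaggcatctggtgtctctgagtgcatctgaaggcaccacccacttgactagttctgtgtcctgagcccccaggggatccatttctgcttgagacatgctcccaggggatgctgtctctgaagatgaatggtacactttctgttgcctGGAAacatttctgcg
Impdh1 site: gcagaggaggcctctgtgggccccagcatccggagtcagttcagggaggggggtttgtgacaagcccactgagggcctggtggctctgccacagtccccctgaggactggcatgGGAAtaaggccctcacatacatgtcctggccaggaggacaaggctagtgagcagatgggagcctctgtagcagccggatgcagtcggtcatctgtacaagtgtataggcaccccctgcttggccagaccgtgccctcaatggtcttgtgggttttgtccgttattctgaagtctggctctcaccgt
Med13l -80.4 kb region: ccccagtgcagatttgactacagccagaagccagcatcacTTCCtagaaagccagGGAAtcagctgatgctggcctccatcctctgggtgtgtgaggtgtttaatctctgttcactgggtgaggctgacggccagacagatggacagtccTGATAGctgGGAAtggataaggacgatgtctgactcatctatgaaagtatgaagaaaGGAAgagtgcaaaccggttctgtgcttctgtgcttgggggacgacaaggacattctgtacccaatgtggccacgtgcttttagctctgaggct
None of the 3 lost sites held a GATA hexamer in these 300 bases, whereas 36.8% of all regions did. Across its full length each site held 1 hexamer, in 1197 bp at Med13l, 718 bp at Cdh23 and 1064 bp at Impdh1. Summit-centred windows of those lengths held a hexamer in 83.3%, 66.4% and 79.7% of all regions. Of the 3 other closed regions of the windows, which lie in Cdh23, those at 71.3 and 73.4 kb each held 1 hexamer in their 300 bases and that at 56.9 kb held none, so 2 of the 6 closed regions held one, near the share of all regions. The -80.4 kb region had TGATAG starting at the centre of its window. GGAA was found once at Med13l, 3 times at Cdh23 and once at Impdh1, and in 96.4% of regions. CANNTG, the E-box bound by basic helix-loop-helix factors, occurred 5 times at Med13l, 4 times at Cdh23 and 3 times at Impdh1, and in 79.5% of regions. TTGCNNAA, taken here as the C/EBP motif, had 1 match at Med13l and none at the other sites, against 15.3% of regions with a match. There was no match at the 3 sites to GAGGAAG, the PU.1 type of ETS motif (21.3% of regions). The same held for the RUNX motif TGTGGT (30.7% of regions) and for the AP-1 motif, TGANTCA (13.8% of regions). The GC content of the windows was 54.3% at Med13l, 54.7% at Cdh23 and 59.3% at Impdh1, and the median over all regions was 49.7% (quartiles 45.3% and 54.7%). No base of the 3 windows was masked as a repeat. A motif match describes these letters and is not evidence of binding.

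Several facts of the series bear on the values. Promoter peaks of the progenitor markers Kit, Cd34, Ptprc, Spi1, Runx1 and Myb were found in all 16 libraries, and those of the 5 hepatocyte markers in none. Between 76 and 78 kb upstream of Gata2, the stretch that holds the -77 enhancer, peaks covered 1196 to 1414 bp in the hi-77+/+ empty libraries and at most 609 bp in any hi-77-/- library. Peaks covered 39% to 49% of the Gata2 coding bases with GATA2 and 89.9% to 99.6% with 9aa-Ins, against 7.64% to 8.75% in hi-77-/- empty and 0% in hi-77+/+ empty cells. The GATA2 and 9aa-Ins vectors carried Gata2 cDNA, so their coding-base peaks cannot be told apart from vector DNA. Lists ran from 49925 peaks (hi-77-/- GATA2 replicate 1) to 111970 peaks (hi-77+/+ empty replicate 2). The lowest summit pileup among the 49000 peaks was 7 in each GATA2 library, 7 to 8 in hi-77-/- empty, 7 to 9 in hi-77+/+ empty and 9 to 11 in 9aa-Ins libraries. A peak of the same height could therefore be kept in a GATA2 library and left out of a 9aa-Ins library. No 2 files were identical.

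Regions were ranked by the strength of the lost peak. A region was called closed when 4 of 4 libraries of the reference group and 0 of 4 of the compared group had a peak, and opened in the reverse case. For GATA2 against hi-77-/- empty, 2045 of 90359 regions were closed (2.26%) and 1550 were opened (1.72%). By median rank over the 4 hi-77-/- empty libraries, where 1 is the most significant peak, the Med13l site was first (5898), the Cdh23 site was in position 3 (7280) and the Impdh1 site in position 5 (8302). Position 2 was 146.4 kb from the 5' end of Zfp619 (6361) and position 4 was 136 kb from that of Mn1 (8226), measured from the nearer edge, so the 3 genes held the first 3 places among regions within 100 kb of a protein-coding 5' end, the limit of annotation in the study. Just outside this choice were regions 15.2 kb from Hs6st1 (median rank 8658) and 16.6 kb from Etv3 (9159). Hs6st1 encodes a heparan sulfate sulfotransferase and Etv3 an ETS family repressor. The gap in median rank between Impdh1 and Hs6st1 was small beside the spread of single libraries at the Impdh1 site, from 6450 to 13961.

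**Figure D1:**
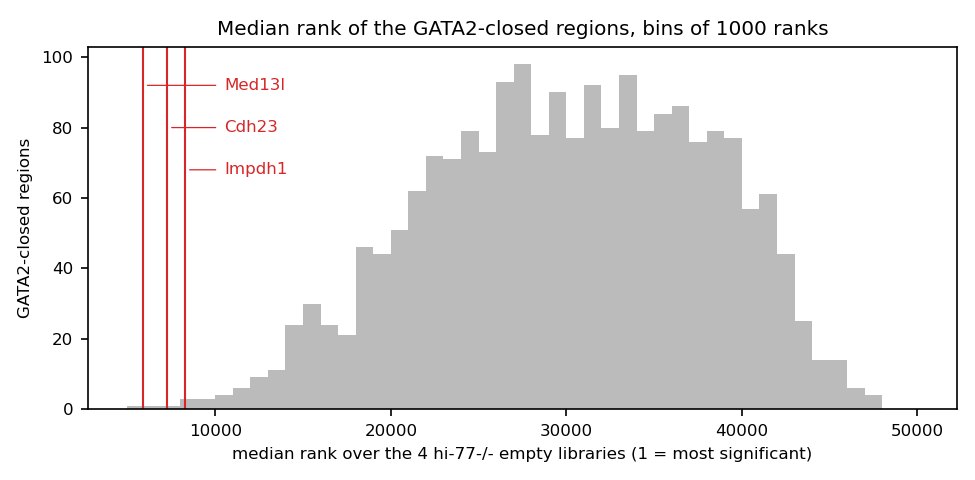
Histogram of the 2045 GATA2-closed regions by their median rank over the 4 hi-77-/- empty libraries (horizontal axis, 1 is the most significant peak), with red lines at the sites of the 3 genes. The lines at 5898, 7280 and 8302 stand at the sparse left edge of the distribution, as the choice of the sites required.

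The Med13l site was strong in hi-77-/- empty cells, weaker in hi-77+/+ empty cells and without a top-49000 peak in GATA2 cells. These values chose the site and are given as a description. In hi-77-/- empty replicates 1 to 4 the peak ranked 5982, 5991, 5265 and 5813, with summit pileups of 34, 37, 36 and 44. Pileup, the depth of stacked reads at the summit as the peak caller counts it, was derived from the deposited fold enrichments. The hi-77+/+ empty peaks ranked 27516, 42602, 27299 and 41800, with pileups of 13, 8, 14 and 9, so all 4 were below every hi-77-/- empty library. The 9aa-Ins peaks ranked 19317, 12854, 12025 and 12740, with pileups of 27, 37, 34 and 34, between those groups in rank and overlapping hi-77-/- empty in pileup. Peaks were 1032 to 1153 bp wide in hi-77-/- empty, 934 to 1049 bp in 9aa-Ins and 238 to 672 bp in hi-77+/+ empty libraries. The summits of the hi-77-/- empty libraries spread over 435 bp, in contrast to the Med13l promoter, where they spread over 36 bp.

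At the Cdh23 site the order of the groups was the same, and the choice again favored high hi-77-/- empty values. The hi-77-/- empty peaks ranked 6144, 7006, 8456 and 7553, with pileups of 33, 34, 29 and 39. Those of 9aa-Ins ranked 20458, 18802, 18123 and 16621, with pileups of 25, 27, 24 and 27, all below the hi-77-/- empty libraries. In hi-77+/+ empty replicates 1 to 3 the ranks were 35321, 45187 and 31281, with pileups of 10, 7 and 12, and replicate 4 had no top-49000 peak. The peak of replicate 2 was tied with the last peaks kept. The summits lay within 102 bp of each other in hi-77-/- empty and within 91 bp in 9aa-Ins libraries, a narrower spread than at Med13l.

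The Impdh1 site had top-49000 peaks in hi-77-/- empty and 9aa-Ins libraries alone. It ranked 6450, 8766, 13961 and 7837 in hi-77-/- empty, with pileups of 33, 31, 22 and 39. In 9aa-Ins libraries it ranked 20204, 21114, 23878 and 22395, with pileups of 26, 25, 19 and 21. The 2 groups did not overlap in rank, and overlapped in pileup only through hi-77-/- empty replicate 3. Here too the choice favored high hi-77-/- empty values. No hi-77+/+ empty and no GATA2 library had a peak among its top 49000.

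**Figure D2:**
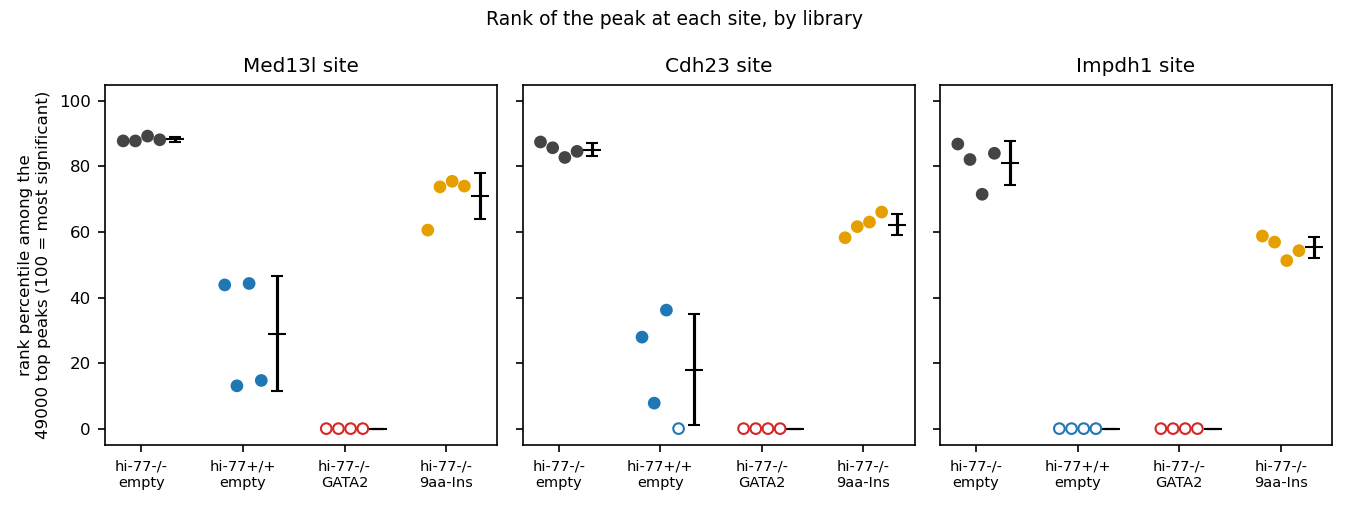
Rank percentile of the peak at the 3 sites (vertical axis, 100 is the most significant of 49000 peaks and 0, drawn as an open circle, is no peak among them), 1 point per library, with the group mean and SD of 4 libraries beside it. The hi-77-/- empty libraries are highest at each site, 9aa-Ins libraries follow at 51.3 to 75.5, and GATA2 libraries are at 0. The choice of the sites favored high hi-77-/- empty and required absent GATA2 values.

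The absence of peaks in GATA2 cells did not hold in the complete lists. With all deposited peaks, each of the 3 sites had a peak in 2 of 4 GATA2 libraries, so none of the 3 met the definition of a closed region. At Med13l these were replicate 2, at rank 73179 of 77829 with a pileup of 5, and replicate 3, at rank 52161 of 53832 with a pileup of 6. At Cdh23 they were replicates 2 and 4, with pileups of 6 and 5. At Impdh1 they were replicates 2 and 4, at ranks 53312 of 77829 and 52415 of 72701, each with a pileup of 7. These last 2 equalled the lowest pileup kept among the 49000, and only the order of positions among tied peaks left them out. When all tied peaks were kept, the Impdh1 site had a peak in 2 GATA2 libraries and was not closed, whereas Med13l and Cdh23 remained without one. Replicate 1, with the shortest list and a lowest deposited pileup of 6, had no peak at any site. Among all 2045 closed regions, 972 (47.5%) had no GATA2 peak in the complete lists, 656 (32.1%) had 1 and 377 (18.4%) had 2.

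The weak GATA2 peaks were nevertheless far lower than those of the same sites in hi-77-/- empty cells. Fold enrichment over the background of the library was 25.1 to 27 at Med13l in hi-77-/- empty, 17.7 to 23.4 in 9aa-Ins, 6.92 to 9.36 in hi-77+/+ empty, and 3.96 and 4.29 in the 2 GATA2 libraries with a peak. The Cdh23 site gave 20.3 to 24.7, 16.4 to 17.3, 4.42 to 7.61, and 4.62 and 4.09 in the same order of groups. The Impdh1 site gave 15.6 to 24.7 in hi-77-/- empty, 13.2 to 17 in 9aa-Ins, 4.68 and 5.38 in the 2 hi-77+/+ empty libraries with a peak, and 5.28 and 5.45 in those of GATA2. The best hi-77+/+ empty peaks at Impdh1 had summits at positions 29232076 and 29232039 of chromosome 6, and those of hi-77-/- empty at 29232614 to 29232712, so they lay in another part of the region. The GATA2 summits were at 29232701 and 29232501. Every 9aa-Ins library was above every GATA2 library at each site, in enrichment and in pileup. This difference was not tested, since the GATA2 libraries chose the sites.

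The promoter of the same gene gave a reference within each library, but this reference itself differed between groups. Promoter pileup was 47 to 55 in 9aa-Ins and 27 to 44 in hi-77-/- empty at Med13l. It was 49 to 62 and 36 to 49 at Impdh1, and 16 to 28 and 12 to 23 at Cdh23. A lower 9aa-Ins share can thus come from a higher promoter as well as from a lower site. As a share of its promoter's pileup, the Med13l site reached 115% ± 11.2 (SD, n = 4) in hi-77-/- empty, 65.8% ± 8.1 in 9aa-Ins and 42% ± 8.33 in hi-77+/+ empty libraries, and 16.7% and 19.4% in the 2 GATA2 libraries with a peak. At Cdh23, whose promoter peak was low, the shares were 219% ± 48.3 in hi-77-/- empty, 122% ± 33.9 in 9aa-Ins and 60.5% ± 29.7 in hi-77+/+ empty, and 42.9% and 33.3% with GATA2. At Impdh1 they were 74.9% ± 14.3 in hi-77-/- empty and 41.5% ± 4.11 in 9aa-Ins, 18.2% and 26.1% in the 2 hi-77+/+ empty libraries with a peak, and 20.6% and 19.4% with GATA2. The 9aa-Ins shares lay below the hi-77-/- empty ones without overlap at each of the 3 genes. This was narrow at Cdh23, where the highest 9aa-Ins share was 168.8% and the lowest hi-77-/- empty share 169.6%. The sites were picked for strong hi-77-/- empty peaks, so the choice favored this order, and the difference was not tested.

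**Figure D3:**
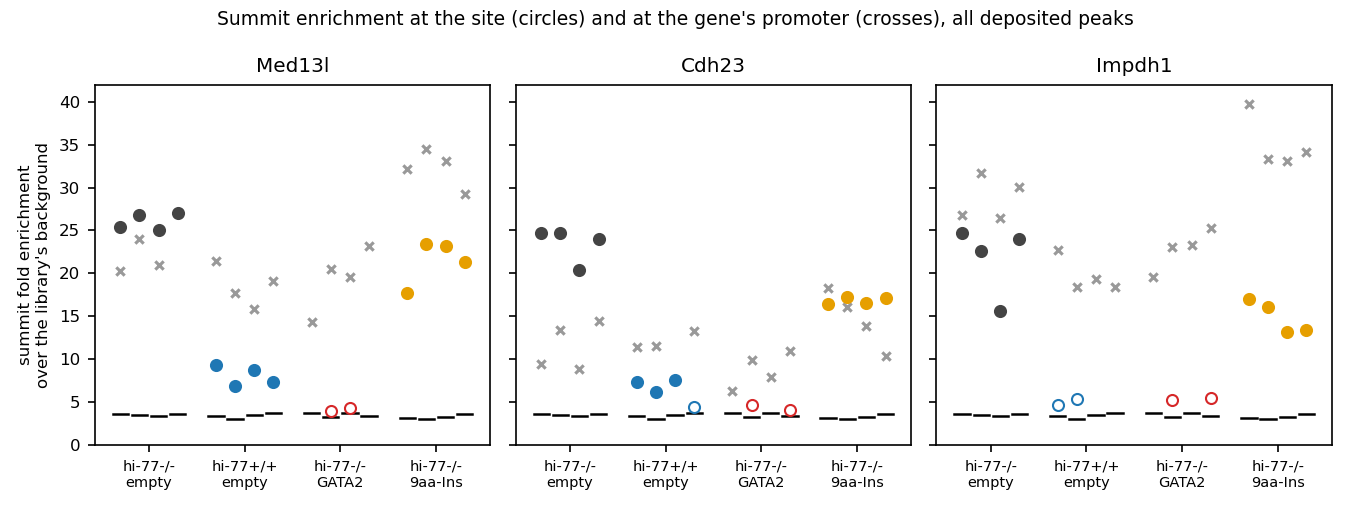
Summit fold enrichment (vertical axis, ratio to the background of the library) at the 3 sites in each of the 16 libraries, from all deposited peaks. Filled circles are peaks among the top 49000, open circles are weaker peaks, crosses are the promoter peak of the gene and black dashes are the lowest enrichment in that library's list. GATA2 libraries with a circle sit at 3.96 to 5.45, close to the dashes, while the promoters of Med13l and Impdh1 stay well above them.

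Promoter peaks were present in GATA2 cells. Each gene had a top-49000 promoter peak, within 1 kb of its 5' end, in 16 of 16 libraries. The rank percentile of the Med13l promoter averaged 83.9 ± 3.29 in hi-77-/- empty, 82.1 ± 3.11 in hi-77+/+ empty, 84.1 ± 1.32 in GATA2 and 87.4 ± 1.81 in 9aa-Ins libraries (SD, n = 4). For Impdh1 the means were 91.1 ± 1.26, 84.5 ± 2.86, 89.2 ± 2.39 and 90.3 ± 2.53 in that order. For Cdh23, with a peak at -0.7 kb, they were 54.9 ± 11.4, 56.3 ± 13.8, 51.5 ± 8.16 and 54.8 ± 8.93. At no gene was the GATA2 range separate from that of hi-77-/- empty.

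Of the 99 regions, 21 had a peak in 16 of 16 libraries (4 at Med13l, 5 at Cdh23 and 12 at Impdh1), against 23.5% of all regions. Over the 3 windows, 6 of 99 regions were closed by GATA2 (background 2.26%) and 1 was opened (background 1.72%), and 3 of the 6 were the sites that defined the windows. By window 1 was closed at Med13l, 4 at Cdh23 and 1 at Impdh1. This order did not hold with all deposited peaks (2, 2 and 2) or with tied peaks kept, when Impdh1 had 4. The other 3 were in introns of Cdh23, 56.9, 71.3 and 73.4 kb downstream of its 5' end, in the same stretch as the site at 77.2 kb. At 73.4 kb the hi-77-/- empty pileups were 18, 18, 26 and 25 and those of 9aa-Ins 19, 18, 16 and 10. At 71.3 kb they were 17, 18, 8 and 17, and 15, 19, 10 and 21. Both regions had no top-49000 peak in hi-77+/+ empty or GATA2 libraries, although GATA2 replicates 2 and 4 had weak peaks at both in the complete lists, as did hi-77+/+ empty replicate 2 at 71.3 kb. The region at 56.9 kb differed from them. It had pileups of 8, 14, 12 and 15 in hi-77-/- empty and no deposited peak in any hi-77+/+ empty or GATA2 library. In 9aa-Ins its pileups were 7, 8, 8 and 6, all below rank 49000, which made it the single region of the windows closed by 9aa-Ins (background 0.157%). That call is lost in the complete lists. A 1273-bp region between these sites, 60.6 kb downstream, had a peak in 16 of 16 libraries, but not at an equal rank. Its median rank was 1007 in hi-77-/- empty, 1933 in 9aa-Ins, 2989.5 in hi-77+/+ empty and 11946.5 in GATA2 libraries. A peak in all libraries thus does not mean that a region was unchanged with GATA2.

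Med13l was the locus with a region opened by GATA2. The region, at -80.4 kb and so on the same side as the lost site, ranked 36345, 33710, 22852 and 23451 in GATA2 libraries, with pileups of 10, 10, 13 and 14. It had no deposited peak in hi-77-/- empty libraries, weak peaks in 2 hi-77+/+ empty libraries and a weak peak in 1 9aa-Ins library. It was also the 1 region of 99 closed in 9aa-Ins against GATA2 (background 1.46%), and its sequence is printed above. Between the gained and the lost site, at -76.9 kb, a region had peaks in all hi-77-/- libraries.

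Regions opened in 9aa-Ins were counted against both other hi-77-/- groups. Against hi-77-/- empty, 2 of 99 regions were opened by 9aa-Ins, near the background of 1.38%. They lay in an intron 77.4 kb downstream of the Med13l 5' end and at -29.6 kb from that of Impdh1. Neither had a top-49000 peak in a hi-77-/- empty or GATA2 library. The Impdh1 one had a peak in 4 of 4 9aa-Ins libraries and in no other library, the complete lists included. The Med13l one had weak peaks in 4 libraries of other groups in the complete lists. Against GATA2, 8 of 99 regions were opened in 9aa-Ins (background 2.95%), and the 3 sites were among them. The others were the 2 regions just named, the Cdh23 regions at 71.3 and 73.4 kb, and a region at -111.5 kb from Cdh23, in an intron of Unc5b. The comparisons with hi-77-/- empty share those 4 libraries, and the 3 sites entered through the choice of loci.

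The hi-77-/- empty and hi-77+/+ empty libraries were also compared region by region. Against hi-77+/+ empty, 8 of 99 regions were opened in hi-77-/- empty (background 3.6%) and 0 were closed (background 2.11%). Of the 8, 5 were at Cdh23, 2 at Med13l and 1, the Impdh1 site itself, at Impdh1. The loci were chosen for strong hi-77-/- empty peaks, so the choice favored openings, and 4 of the 8 were also closed by GATA2. Of the 8, 4 had peaks in GATA2 libraries. The regions at -43.5 kb from Cdh23, in an intron of the nucleoside transporter gene Slc29a3, and 76.1 kb downstream of the Med13l 5' end had peaks in 4 of 4 GATA2 libraries. The regions at -84 kb from Med13l and -120.5 kb from Cdh23 had them in 3 of 4. In the complete lists, weak peaks were found at -43.5 kb in 3, at 76.1 kb in 4 and at -84 kb in 2 hi-77+/+ empty libraries, and at -120.5 kb in none.

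**Figure D4:**
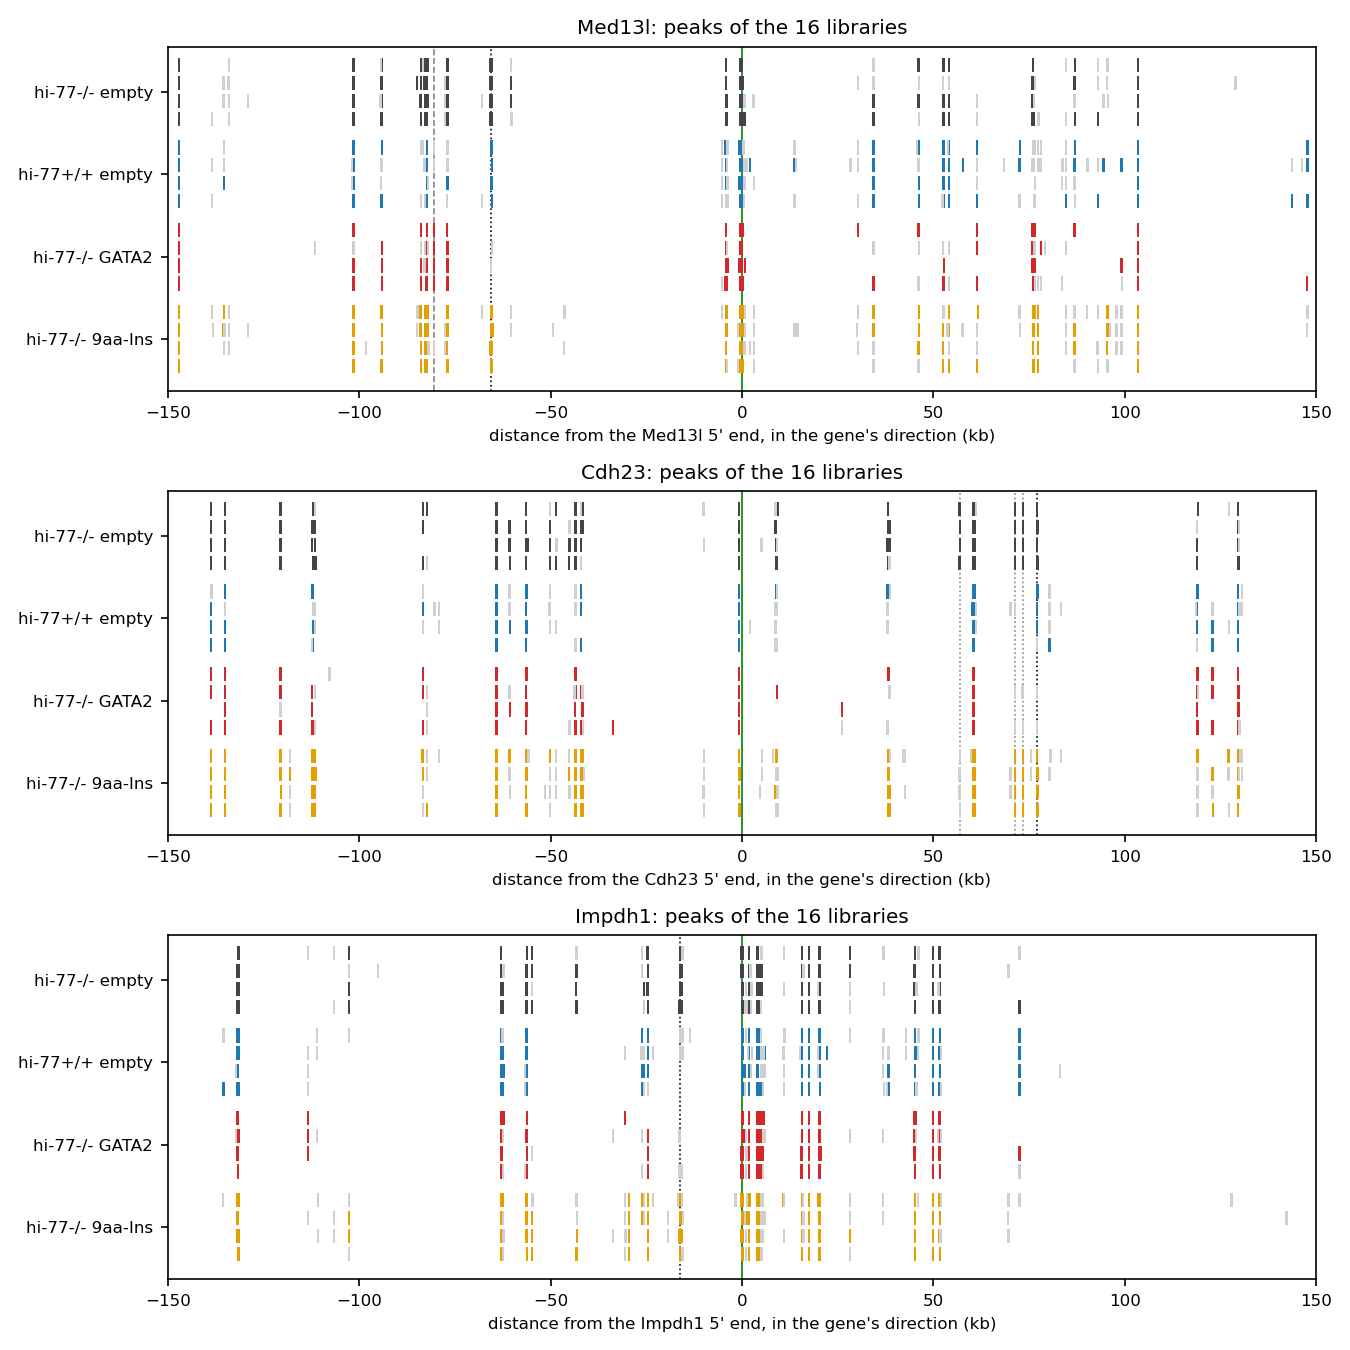
Peaks of the 16 libraries (rows, 4 per group, replicate 1 at the top) within 150 kb of each 5' end (horizontal axis, kb in the direction of the gene), with colored bars for top-49000 peaks and gray bars for weaker deposited peaks, drawn at least 0.6 kb wide. Dotted lines mark GATA2-closed regions, black for the site of the locus, the dashed line marks the GATA2-opened region at -80.4 kb from Med13l, and the green line is the 5' end. The 4 closed regions of Cdh23 lie together at 56.9 to 77.2 kb, beside the region at 60.6 kb that all 16 libraries share.

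9aa-Ins and hi-77+/+ empty libraries, which the choice did not use, were set against each other by exact permutation tests (two-sided), adjusted over 9 tests by the Benjamini-Hochberg method. With 4 against 4 libraries no p below 0.0286 is possible. The rank percentile was higher in 9aa-Ins at the Med13l site (71 ± 6.96 against 29 ± 17.4, SD, n = 4, exact permutation p = 0.0286, adjusted p = 0.0367). It was also higher at the Cdh23 site (62.2 ± 3.25 against 18 ± 16.9) and at the Impdh1 site (55.3 ± 3.26 against 0), with the same exact permutation p and adjusted p, and the 4 libraries of the groups did not overlap at any site. Of the 2045 GATA2-closed regions, 1194 (58.4%) had a peak in 4 of 4 9aa-Ins libraries, as all 3 sites did. Like the Impdh1 site, 1258 (61.5%) had a peak in 0 of 4 hi-77+/+ empty libraries. Peaks in 3 of 4 hi-77+/+ empty libraries, as at Cdh23, were found at 144 (7.04%). Peaks in 4 of 4, as at Med13l, were found at 157 (7.68%). The sites were picked for strong peaks in hi-77-/- cells, to which 9aa-Ins libraries belong, so the choice favored this direction. Ranked among all deposited peaks, the direction remained and the adjusted p rose to 0.0514 at each site. It rose to the same value when 9aa-Ins replicate 1, 2 or 3 was left out. In these settings the unadjusted exact permutation p stayed at 0.0286 at each site, so the rise came from other tests among the 9. Among peaks narrower than 1 kb the adjusted exact permutation p was 0.0643 at Cdh23 and Impdh1 (unadjusted 0.0286), with differences of 47.8 and 64.1 points. At Med13l the difference then fell to 2.87 points (adjusted exact permutation p = 0.932), as 2 of the 4 9aa-Ins peaks there, of 1049 and 1037 bp, were left out.

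Coverage around the sites differed as well. With the peaks at the site left out, peaks covered 8871, 8636, 6743 and 6374 bp of the Med13l window in 9aa-Ins libraries and 4177, 4111, 3387 and 3555 bp in hi-77+/+ empty libraries. In the Cdh23 window the values were 8976, 8181, 7069 and 6492 bp against 3829, 2869, 3552 and 3082 bp. Both differences passed the exact permutation test (p = 0.0286, adjusted p = 0.0367), and neither did without 9aa-Ins replicate 1, 2 or 3 (exact permutation p = 0.0286, adjusted p = 0.0514). Neither passed with all deposited peaks (adjusted exact permutation p = 0.0857 at Med13l and 0.0514 at Cdh23) or with peaks narrower than 1 kb (0.0643 for both). The windows were chosen for strong hi-77-/- empty peaks, and 9aa-Ins cells are also hi-77-/-, so the choice favored higher 9aa-Ins coverage. The Cdh23 coverage still included the closed regions at 71.3 and 73.4 kb, with peaks in 4 of 4 9aa-Ins and 0 of 4 hi-77+/+ empty libraries. In the Impdh1 window coverage was 8287 ± 631 bp against 7281 ± 291 bp, which did not pass (exact permutation p = 0.0571, adjusted p = 0.0643). It passed without 9aa-Ins replicate 4 (1256 bp, adjusted exact permutation p = 0.0429), with tied peaks kept (1056.5 bp, 0.0429) and in a 100 kb window (927 bp, 0.0321). All 49000 peaks together covered 1.25 times as many bases in 9aa-Ins as in hi-77+/+ empty libraries, against 2.01 times in the Med13l window, 2.3 times in the Cdh23 window and 1.14 times in the Impdh1 window. In GATA2 libraries coverage was 3998 ± 757 bp at Med13l, 3483 ± 757 bp at Cdh23 and 6106 ± 557 bp at Impdh1, near the hi-77+/+ empty level at Med13l and Cdh23. In hi-77-/- empty libraries it was 6064 ± 462 bp, 6994 ± 643 bp and 7580 ± 704 bp. All 49000 peaks covered 12.9 to 18.5 Mb with GATA2 and 17.1 to 20.1 Mb in hi-77-/- empty.

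The promoter of Med13l ranked higher in 9aa-Ins than in hi-77+/+ empty libraries by 5.31 percentile points, and that of Impdh1 by 5.76 points (exact permutation p = 0.0286, adjusted p = 0.0367 for both). The Cdh23 promoter differed by -1.46 points (exact permutation p = 0.83, adjusted p = 0.83). Both calls were lost without any 1 of the 9aa-Ins libraries (adjusted exact permutation p = 0.0643), and that of Impdh1 also without hi-77+/+ empty replicate 2 or 4 (adjusted p = 0.0735). The promoter differences were small beside those at the sites, and both calls were lost, with the direction turned, when only peaks narrower than 1 kb were ranked (-44.7 points at Med13l and -19.1 at Impdh1). Neither turned difference passed. The best 9aa-Ins peaks at the Med13l promoter, 1141 to 1391 bp wide, exceed that limit, while hi-77+/+ empty peaks of 553 and 744 bp do not. At Impdh1 the limit left out 9aa-Ins peaks of 1086 and 1044 bp and a hi-77+/+ empty peak of 1304 bp.

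Most neighboring genes with a 5' end in the windows had promoter peaks in all groups, except Prrt4 and Fam71f1. Med13l had no other protein-coding gene in its window. At Cdh23, Slc29a3, at -56.3 kb, had a promoter peak in 16 of 16 libraries with group means of 86 to 88.3 percentile points. Unc5b, a netrin receptor gene at -135.1 kb, had one in 4 of 4 libraries of each hi-77-/- group and in 3 of 4 of hi-77+/+ empty. Its mean percentile was 59.1 with GATA2, 48.3 in hi-77-/- empty, 41 with 9aa-Ins and 16.3 in hi-77+/+ empty libraries. At Impdh1, promoter peaks of Rbm28, Hilpda, Fam71f2 and Calu were found in 16 of 16 libraries, and none was found at Prrt4. Fam71f1, at -102.8 kb from Impdh1, had a promoter peak in 3 of 4 hi-77-/- empty and 2 of 4 9aa-Ins libraries and in none of the others. These Fam71f1 peaks were near the cutoff, with a mean percentile of 11.6 in hi-77-/- empty and 2.06 in 9aa-Ins libraries. In the complete lists the region there had a peak in 4 hi-77-/- empty, 4 9aa-Ins, 1 hi-77+/+ empty and 0 GATA2 libraries.

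Genes that work with the 3 proteins were examined for regions closed or opened by GATA2 within 150 kb of their 5' ends. Of the 6 other genes of the Mediator kinase module and its paralogs, Med12, Med12l, Med13, Cdk8, Cdk19 and Ccnc, 0 had a closed region and 0 an opened one, although each had 11 to 30 regions. Among all protein-coding genes 28.8% had a closed region and 23% an opened region. Of 9 genes for partners of cadherin 23 in hair cells, 6 (66.7%) had a closed region and 4 (44.4%) an opened one. The closed region of Myo7a, a myosin gene, was at -33.1 kb and that of Tmie at 54.1 kb. Those of Ush1g, Lhfpl5 and Ush1c were farther away, at 75.4, 133.5 and -142.2 kb. Whrn had 3 closed and 2 opened regions. The windows of the 9 genes held from 2 regions (Pcdh15) to 48 (Lhfpl5). The shares were not adjusted for this number, and their difference from all protein-coding genes was not tested. Of 15 genes of purine synthesis and salvage, 6 (40%) had a closed region and 3 (20%) an opened one. Impdh2, the paralog of Impdh1, had a closed region 112.4 kb downstream of its 5' end, and Prps2, which makes phosphoribosyl pyrophosphate, had 2. The closed regions of the 6 purine genes numbered 6 in all, since Ppat and Paics shared 1, at -141.1 kb from Ppat and 141.4 kb from Paics.

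Regions elsewhere with the most similar profile were sought by the mean absolute difference in rank percentile over the 16 libraries, with 0 for no peak. For the Med13l site these were a region 17 kb downstream of the Etv3 5' end (difference 7.15 points), one at -6.1 kb from S100a2 (7.34) and one in an intron of Sparc, a matrix glycoprotein gene (7.43). For the Cdh23 site they were in an intron of Tns3, which encodes a tensin of focal adhesions (5.35), near Zfp619 (5.96) and near Sh3tc2 (6.89). For the Impdh1 site they were the same region near Zfp619 (3.13), one in an intron of Prkag2, a gene for a subunit of AMP-activated kinase (3.89), and one in an intron of Ephb4, an ephrin receptor gene (4.22). The region near Zfp619 was thus among the closest to both Cdh23 and Impdh1 and was also in position 2 of the ranking of closed regions. Unlike the 3 sites, it had no GATA2 peak in the complete lists.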

How the data were processed

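Chromatin accessibility was measured by ATAC-Seq in 16 libraries, 4 per group, grouped by their labels. The members and gene lists were chosen with earlier results of these data known. Per the labels and the study's methods, the authors trimmed reads with Trim Galore 0.4.1, aligned them to mm10 with Bowtie2 2.2.5, removed duplicates with Picard 2.26.0, and called peaks per library with MACS2 against a constant background (nolambda). The deposited files are peak lists. The deposited score is a whole number made from the q value. The ratio deposited for each summit is its fold over background, the deposited significance is a −log10 p-value or −log10 q-value, and the deposited summit is an offset in bases.

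Peaks of the autosomes, X and Y were ranked by −log10 p, then fold enrichment, then position. The 49000 highest per library were used, since the shortest list held 49925. Fold enrichments were whole multiples of 1 step per library (100% within 0.02 of a step), from which background and summit pileup were derived; the same pileup gives the same p, so ties are common. Read totals are unknown, so depth limits are not given as intervals. Genes were taken from GENCODE M21. Tests were two-sided exact permutation tests with Benjamini-Hochberg adjustment over 9, run in Python 3.11.15 with NumPy 2.4.6 and pandas 2.3.3 and tested on simulated data. p-values measure the spread between these libraries, and the study calls them biological replicates. Genes outside the loci were named by fixed rules: protein-coding genes in the windows, those nearest the regions that neighbor the sites in the ranking, those nearest the 3 most similar regions, and listed genes with a called region. Alternatives were all deposited peaks, 24500 peaks per library, peaks narrower than 1 kb, a 100 kb window, peaks covering 50% of a region, leaving out each library, and a replicate block. Keeping or leaving out all peaks tied at the 49000th was added after seeing the data.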

Additional observations from a re-analysis of the deposited data

Results flagged for a closer look

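One value stood apart from the other libraries of its group. At the Med13l site, 9aa-Ins replicate 1 had a rank percentile of 60.58, while replicates 2 to 4 were at 73.8 to 75.5. Of 40 groups of 4 libraries examined in this way, 1 had a library apart, and chance gives about 1 in 20. Its pileup of 27 was also the lowest of the 4, and its list of 107730 peaks was the longest of that group.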

How the results depend on the processing

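Of 277 recomputed values, 196 kept their direction and side of the threshold or stayed near the reported value, 46 lost a call, 3 gained one, 7 reversed and 25 moved. All differences are 9aa-Ins minus hi-77+/+ empty, in the order Med13l, Cdh23 and Impdh1, and the causes were not tested unless stated. With all deposited peaks the sites differed by 23.2, 32.1 and 60.1 points, coverage by 4091 bp at Med13l and 4946 bp at Cdh23, and the promoters of Med13l and Impdh1 by 3.04 and 3.2 points, with adjusted exact permutation p from 0.0514 to 0.184. With peaks narrower than 1 kb the sites differed by 2.87, 47.8 and 64.1 points, coverage by 2526 bp and 3704.5 bp, and the promoters by -44.7, 1.13 and -19.1 points, and no call remained; 0 hi-77-/- empty libraries then had a peak at the Med13l site, as those peaks exceed 1 kb. With ties kept, Impdh1 coverage passed (1056.5 bp) and the promoters of Med13l (4.88) and Impdh1 (5.27) did not; with ties left out the Cdh23 promoter turned to 0.928. In a 100 kb window Impdh1 coverage passed (927 bp).

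Replicate numbers did not pair the libraries (same-number correlations -0.044 to -0.002). With the replicate block the differences were unchanged (sites 42, 44.3 and 55.3 points; coverage 3848.5 and 4346.5 bp; promoters 5.31 and 5.76 points) but 4 pairs cannot give an exact permutation p below 0.125, so this fit cannot pass.

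Leaving out 1 library gave 36.7 to 47.1, 38.3 to 50.3 and 54.2 to 56.7 points at the sites, 3444 to 4276, 3914 to 4742 and 832 to 1256 bp of coverage, and 4.10 to 6.54, -8.15 to 2.70 and 4.69 to 6.81 points at the promoters. The Cdh23 promoter reversed in 3 of these. Without 1 library the windows held 1 to 2 closed regions at Med13l, 4 to 6 at Cdh23 and 1 to 2 at Impdh1, and 1 to 2, 0 to 1 and 0 to 1 opened ones. Over all regions 2296 to 2529 were closed and 1705 to 2041 opened.

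With all deposited peaks the windows held 2, 2 and 2 closed regions, none of them the sites, which had peaks in 2, 2 and 2 GATA2 libraries, and 1 opened region at Impdh1. With the smaller number of peaks per library 1254 regions were closed and 817 opened, with 2 closed and 0 opened at Med13l. Peaks covering 50% of a region gave 2 closed and 0 opened at Med13l and 2 closed at Impdh1, and peaks narrower than 1 kb gave 2 closed at Impdh1. With ties kept Impdh1 had 4 closed regions, and its site had peaks in 2 GATA2 libraries. Read totals are unknown, so the depth behind an absent peak cannot be given.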
